A study of Mus musculus with 2 samples.

Results

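The long-chain acyl-CoA synthetases of the Acsl family are 5 mouse genes, Acsl1, Acsl3, Acsl4, Acsl5 and Acsl6, and each was followed here through every long read assigned to it by gene symbol. They were 5 of 18177 annotated genes with a read, and they held 63 of 112820 transcript models in replicate 2 and 66 of 112323 in replicate 1. Long-read RNA sequencing was run on total RNA of adrenal gland from male B6CASTF1/J mice, an F1 hybrid strain, aged 14 days. The series held a single group with 2 libraries, so no treatment or genotype was compared. The labels number them as biological replicates, and they are called replicate 2 and replicate 1 here. Both libraries carry 1 donor identifier but separate biosamples, and the labels do not state how many males entered each. Separate animals are therefore not shown, and every test below compares these 2 libraries and covers counting error only.

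An acyl-CoA synthetase joins a free fatty acid to coenzyme A at the cost of ATP. Only the activated fatty acid can be burned in mitochondria, built into triglyceride and phospholipid, or used to esterify cholesterol. The adrenal cortex stores cholesterol as fatty acyl esters in lipid droplets and draws steroid precursors from them, and Acsl4, which prefers arachidonic acid, is known for its high expression in steroid-making cells.

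The annotated mRNA structures of the family fell into a pair of subgroups by exon length, measured on the annotation and not on the reads. Acsl1-201, Acsl5-201 and Acsl6-204, numbered as in the GENCODE M21 annotation, shared a run of 17 consecutive exons of equal length, exons 4 to 20, which covered 1646 bases. Acsl3-201 and Acsl4-201 shared another run of 12 exons, exons 4 to 15, over 1627 bases. Across the subgroups the longest run was 1 exon of 72 bases. Within the first run, exon 11 has 78 bases and encodes the fatty acid gate, the segment that closes over the entrance of the fatty acid tunnel. In human ACSL1 and ACSL6 this exon is known to come in mutually exclusive versions. Mouse Acsl1 and Acsl6 are each annotated with a pair of such versions, and Acsl5-201 has a single one. The 5 exons are shown because reads are counted by version of this exon below. Capitals mark the bases that all 5 share at the same position, 26 of 78 (33.3%). They are reference sequence from GENCODE M21 (mm10, plus strand), not the alleles of the hybrid mice.
Acsl1-201 exon 11, chr8:46521268-46521345: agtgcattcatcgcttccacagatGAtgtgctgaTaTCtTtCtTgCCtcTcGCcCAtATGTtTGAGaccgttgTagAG
Acsl1-202 exon 10, chr8:46521410-46521487: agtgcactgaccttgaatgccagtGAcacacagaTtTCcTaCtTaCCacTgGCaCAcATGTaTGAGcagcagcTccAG
Acsl5-201 exon 11, chr19:55283308-55283385: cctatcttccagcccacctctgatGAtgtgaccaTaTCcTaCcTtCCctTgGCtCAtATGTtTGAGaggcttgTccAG
Acsl6-204 exon 11, chr11:54336936-54337013: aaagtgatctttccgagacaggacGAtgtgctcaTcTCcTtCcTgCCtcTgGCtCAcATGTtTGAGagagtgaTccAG
Acsl6-207 exon 11, chr11:54337071-54337148: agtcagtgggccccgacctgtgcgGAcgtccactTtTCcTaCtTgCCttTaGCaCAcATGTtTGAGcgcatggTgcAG
Paired identity reached at most 64.1%, between Acsl5-201 and Acsl6-204. The alternatives within Acsl1 were 53.8% identical, below the 62.8% that Acsl1-201 shared with either Acsl5-201 or Acsl6-204.

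Replicate 2 had 984958 reads and replicate 1 had 964679 reads after ERCC spike-ins were set aside (1.80% of reads in replicate 2 and 1.73% in replicate 1). Levels are given in CPM, reads scaled to a total of 1000000. The labelled tissue matched its markers, since 7 genes of the steroid-making cortex summed to 39299 CPM in replicate 2 and 39453 CPM in replicate 1, and 6 chromaffin cell genes to 8874 CPM in replicate 2 and 9139 in replicate 1. An exact binomial test described below called 9.17% of all genes tested. Of the cortex genes, it called Cyp11a1 higher in replicate 2 (1.16 times replicate 1) and 3 higher in replicate 1, such as Cyp11b1 (0.782 times). It called 2 chromaffin genes, both higher in replicate 1. After TMM scaling it called 2 cortex genes higher in replicate 2 and 1 in replicate 1, and 2 chromaffin genes higher in replicate 2. The libraries stood further apart in liver and neuron markers. All 8 liver markers were higher in replicate 2, with a sum of 15657 CPM there and 754 CPM in replicate 1, and none was at 0. Neuron markers summed to 54.8 CPM in replicate 2 and 186 CPM in replicate 1, with 4 of 5 tested higher in replicate 1 and none at 0. Of 3 tested macrophage markers, only Lyz2 was called (58.9 CPM in replicate 2, against 180 CPM in replicate 1), and all 5 summed to 107 CPM in replicate 2 and 256 CPM in replicate 1. In bulk tissue, fewer cells of a type and less RNA per cell cannot be told apart. Where the liver and fat transcripts came from was not tested.

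Acsl1, Acsl5 and Acsl4 supplied nearly all Acsl reads, and Acsl3 and Acsl6 were close to the limit of detection. Acsl1, the family member of mitochondria and endoplasmic reticulum that dominates in fat, heart and liver, had 339 reads (344 CPM) in replicate 2 and 300 reads (311 CPM) in replicate 1. Its mean of 328 ± 23.5 CPM (SD, n = 2, as for all levels with ±) placed it at rank 486 of 18177 genes. Acsl5, a synthetase of mitochondria and endoplasmic reticulum that is abundant in intestine, had 124 reads (126 CPM) in replicate 2 and 103 reads (107 CPM) in replicate 1, a mean of 116 ± 13.5 CPM and rank 1636. Acsl4 had 75 reads (76.1 CPM) in replicate 2 and 118 reads (122 CPM) in replicate 1, a mean of 99.2 ± 32.7 CPM and rank 1946. The SDs of Acsl5 and Acsl4 overlapped, and their order was turned round in replicate 1, so these neighbours did not differ beyond the spread between libraries. Acsl1 stood above both in each library. The part of fat RNA in the Acsl1 level was not tested.

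Acsl3, the synthetase tied to the birth of lipid droplets on the endoplasmic reticulum, had 7 reads (7.11 CPM) in replicate 2 and 10 reads (10.4 CPM) in replicate 1, a mean of 8.74 ± 2.30 CPM and rank 9359. Acsl6, known from brain and for the activation of docosahexaenoic acid, had 3 reads (3.05 CPM) in replicate 2 and 5 reads (5.18 CPM) in replicate 1, a mean of 4.11 ± 1.51 CPM and rank 11522. A gene may go undetected up to the level of 3 reads (3.05 CPM for replicate 2 and 3.11 CPM for replicate 1). The exact Poisson intervals of Acsl3 and Acsl6 overlapped in both libraries, so their order is not resolved at this depth. A long read was counted once whatever its length, so these levels were not divided by length. Divided by the mean length of each gene's models, the order was the same, at 94.4 CPM per kb for Acsl1, 36.3 for Acsl5, 23.2 for Acsl4, 3.87 for Acsl3 and 2.14 for Acsl6.

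**Figure D1:**
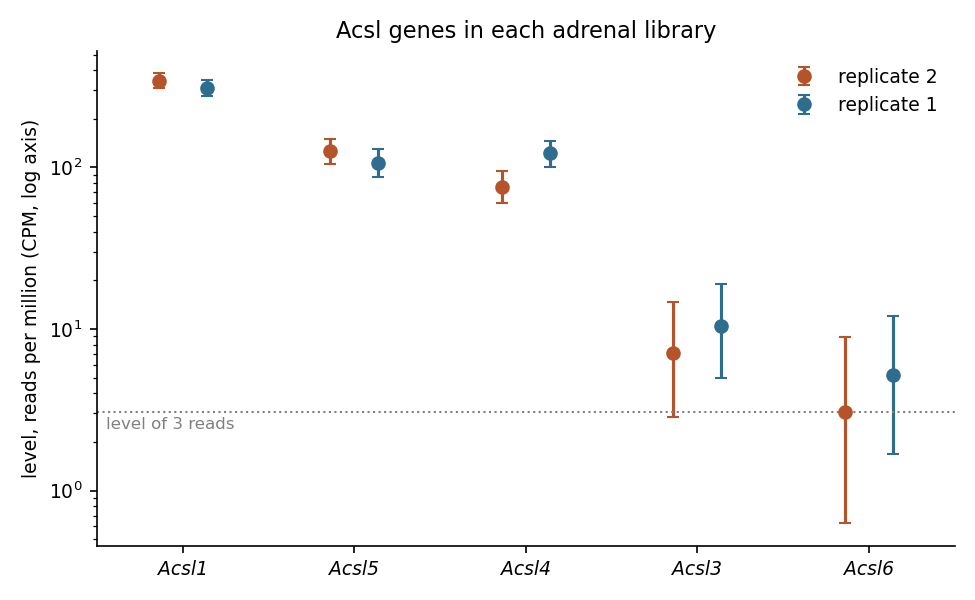
Level of each Acsl gene in CPM (log axis), replicate 2 left of replicate 1, with exact Poisson 95% intervals of the counts. Acsl1 lies highest, at 344 CPM (replicate 2) and 311 CPM (replicate 1), Acsl5 and Acsl4 between 76.1 and 126 CPM, and Acsl3 and Acsl6 at or under 10.4 CPM, near the dotted line at the level of 3 reads.

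All Acsl genes together summed to 556.4 CPM in replicate 2, against 555.6 CPM in replicate 1, while Acsl4 supplied 13.7% of the summed reads in replicate 2 and 22.0% in replicate 1. Acsl4 was the 1 member whose reads differed between the libraries past the threshold, with replicate 2 at 0.623 times the level of replicate 1 (Clopper-Pearson 95% interval 0.460 to 0.838, adjusted p = 0.0212 by the exact binomial test). Every ratio below likewise sets replicate 2 over replicate 1. Of all 11094 genes with at least 10 reads, 9.17% passed in either direction, 4.35% as higher in replicate 2 and 4.81% as higher in replicate 1. The log2 ratio of Acsl4 was -0.68, against a median of -0.15 over all genes tested. Acsl4 was lower in replicate 2 under every scaling tried, but the call was lost under some. The adjusted p (exact binomial test) was 0.130 after TMM scaling, 0.0839 with DESeq2 size factors and 0.259 from known models alone, and 0.00826 with scaling by ERCC reads. TMM scaling moved the median of all genes to 0.01 and the share of calls that were higher in replicate 2 to 76.7%, against 47.5% without it.

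Acsl1 and Acsl5 had slightly higher CPM in replicate 2, without passing the test, and from known models alone Acsl5 turned the other way (ratio 0.849). The ratio of Acsl1 was 1.11 (0.945 to 1.30, adjusted p = 0.551, exact binomial test) and that of Acsl5 was 1.18 (0.901 to 1.55, adjusted p = 0.582, exact binomial test). Acsl3 had a ratio of 0.686 with the wide interval 0.221 to 2.00 (adjusted p = 0.805, exact binomial test). Acsl6 had too few reads to be tested. The liver and neuron markers given above moved with these libraries, and their part in the ratios was not tested.

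**Figure D2:**
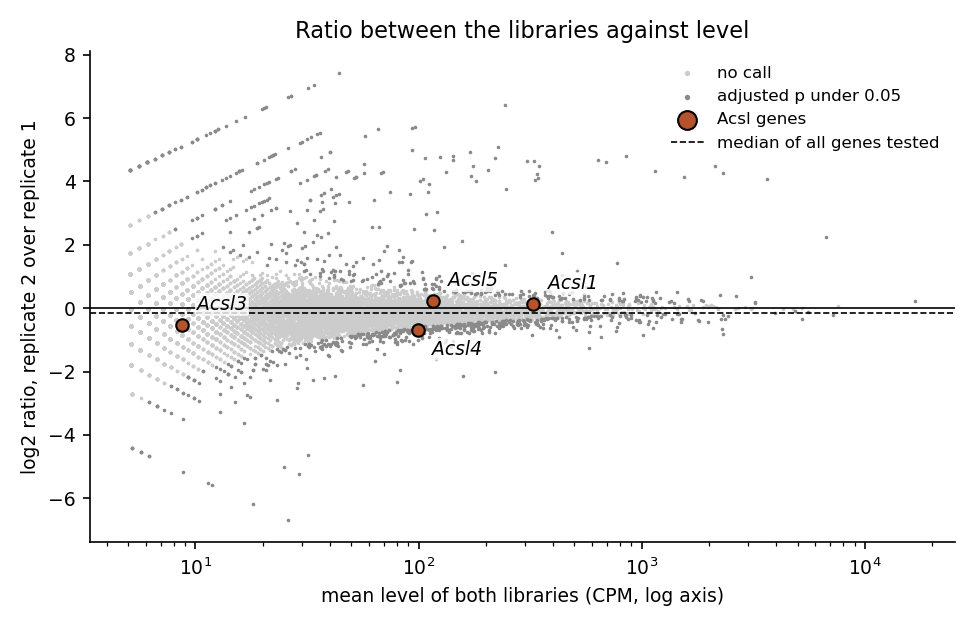
The log2 ratio of replicate 2 over replicate 1, with 0.5 reads added to each count, against the mean level (CPM, log axis) for the 11094 genes tested, called genes in darker grey. Acsl1 and Acsl5 lie just above 0, Acsl4 at -0.68 among called genes, and Acsl3 at -0.52 where counts are low; the dashed line is the median of -0.15.

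Known models, those equal to an annotated transcript, held most reads of Acsl1 and Acsl4, while few of the annotated transcripts had reads. Of 44 annotated transcripts of the family, 9 had a read, 3 each of Acsl1 and Acsl4, 2 of Acsl3, 1 of Acsl5 and 0 of the 15 of Acsl6. Known models held 79.4% of Acsl1 reads in replicate 2 and 80.3% in replicate 1. They held 74.7% of Acsl4 reads in replicate 2 and 68.6% in replicate 1. For Acsl5 the shares were 47.6% in replicate 2 and 68.9% in replicate 1. Splice junctions were rarely new. Annotated junctions took between 99.4% and 99.8% of all junction crossings in Acsl1, Acsl4 and Acsl5 in either library.

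**Figure D3:**
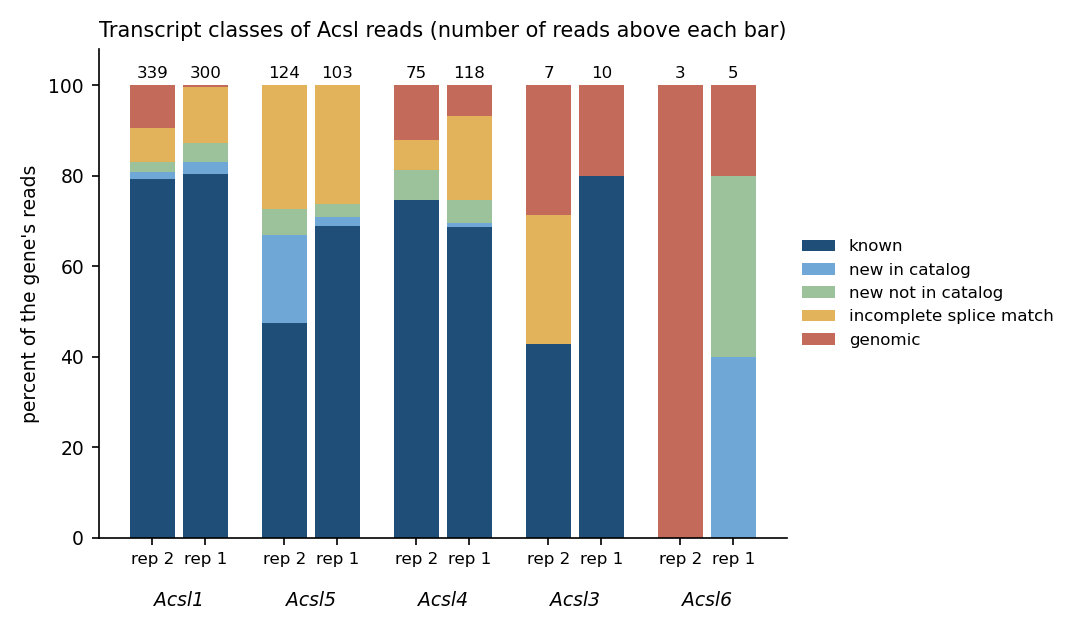
Percent of each gene's reads by transcript class, replicate 2 left of replicate 1, with the number of reads above each bar. Known models (dark blue) dominate Acsl1 and Acsl4, while new combinations of annotated splice sites (light blue) take 19.4% of Acsl5 reads in replicate 2 and 1.94% in replicate 1.

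The libraries differed in which Acsl5 transcript was made. Acsl5-201 (22 exons, 683 codons) held 59 of 90 full-splice reads in replicate 2 (65.6%, Wilson 95% interval 55.3% to 74.6%) and 71 of 76 in replicate 1 (93.4%, 85.5% to 97.2%). Fisher's exact test gave an adjusted p of 0.0148 over 4817 genes, of which 6 passed (0.125%), Acsl5 among them. The top transcripts of the other abundant members did not pass that test. Acsl1-201 held 241 of 282 full-splice reads in replicate 2 (85.5%) and 209 of 262 in replicate 1 (79.8%), and Acsl4-203 held 41 of 61 in replicate 2 (67.2%) and 58 of 88 in replicate 1 (65.9%), each with an adjusted p of 1 by Fisher's exact test. Known single-exon models counted as full-splice in this test for every gene. The Acsl1 totals therefore include the single-exon Acsl1-210, with 19 reads in replicate 2 and 8 in replicate 1. Spliced full chains of Acsl1 alone numbered 263 in replicate 2 and 254 in replicate 1, and the share of Acsl1-201 among them was not tested. The median share of the top transcript over all genes tested was 87.6%.

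The Acsl5 difference lay at the 5' end of the gene (chr19:55251938-55297720, plus strand). Of reads that joined a first exon to exon 2, 64 of 88 in replicate 2 (72.7%) and 71 of 73 in replicate 1 (97.3%) began with exon 1 of Acsl5-201. The upstream first exon, chr19:55251938-55252076, annotated in the short transcript Acsl5-205 and noncoding, was used by 23 of 88 reads in replicate 2 (26.1%, 18.1% to 36.2%) and 2 of 73 in replicate 1 (2.74%, 0.755% to 9.45%). The difference was 23.4 percentage points (Newcombe 95% interval 12.9 to 33.6), and the Wilson intervals of the libraries did not overlap. Nearly all these reads ran on through all later exons of Acsl5-201, 22 in replicate 2 and 2 in replicate 1, a full-length chain of 22 exons that the annotation does not hold, since Acsl5-205 ends after 5 exons and 520 bases. The start codon lies in exon 2 at chr19:55268673, so the annotated reading frame begins downstream of either first exon. The 8 liver markers were all higher in replicate 2, as was this first exon, and their part in the difference was not tested.

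Acsl1 (chr8:46471037-46536051, plus strand) also had a choice of first exon, with a smaller difference in the other direction. Exon 1 of Acsl1-201 was joined to exon 2 by 250 of 260 reads in replicate 2 (96.2%, 93.1% to 97.9%) and 221 of 249 in replicate 1 (88.8%, 84.2% to 92.1%). The first exon of Acsl1-203, which ends at chr8:46491161, was used by 9 of 260 reads in replicate 2 (3.46%, 1.83% to 6.45%) and 25 of 249 in replicate 1 (interval 6.89% to 14.4%). The difference was -6.58 percentage points (-11.2 to -2.24). Both transcripts are annotated with 699 codons from the same start codon in exon 2, at chr8:46492832. Exon 2 itself was skipped by 3 of 254 reads in replicate 2 and 5 of 226 in replicate 1, or 1.67% of both (0.847% to 3.25%), which removes that start codon.

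Among RefSeq promoter windows (GRCm38.p6), each first exon of Acsl1 has its own, the 250 bases before its start, shown because the reads used both. Promoter activity was not measured. Capitals mark GC boxes, GGGCGG on either strand, counted with overlaps. The window before exon 1 of Acsl1-201 held 4 of them at 72.0% G and C, and the one before the first exon of Acsl1-203 held 0 at 48.4% G and C.
Acsl1-201, chr8:46470787-46471036, plus strand: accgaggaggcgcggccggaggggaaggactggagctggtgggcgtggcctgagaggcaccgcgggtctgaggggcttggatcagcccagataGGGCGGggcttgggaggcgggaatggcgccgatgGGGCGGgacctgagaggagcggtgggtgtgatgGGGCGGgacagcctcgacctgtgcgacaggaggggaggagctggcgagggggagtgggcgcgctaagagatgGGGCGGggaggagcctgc
Acsl1-203, chr8:46490716-46490965, plus strand: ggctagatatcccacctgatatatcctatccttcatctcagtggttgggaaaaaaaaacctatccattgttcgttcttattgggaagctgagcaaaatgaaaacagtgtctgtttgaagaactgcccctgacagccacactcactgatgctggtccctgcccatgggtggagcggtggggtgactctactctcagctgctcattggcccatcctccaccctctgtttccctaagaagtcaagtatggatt
Of 32851 RefSeq promoter windows of this length, 32.7% held a GC box. CCAAT on either strand stood 0 times in the first window and 2 times in the second, against 33.8% of all windows with a match. The GC box was present in the windows of Acsl3 (5), Acsl4 (2) and all 3 of Acsl6 (1, 2 and 1), and absent from the single window of Acsl5, which lies before exon 1 of Acsl5-201. TATAAA, which 12.4% of all windows held, was in no window of the family.

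**Figure D4:**
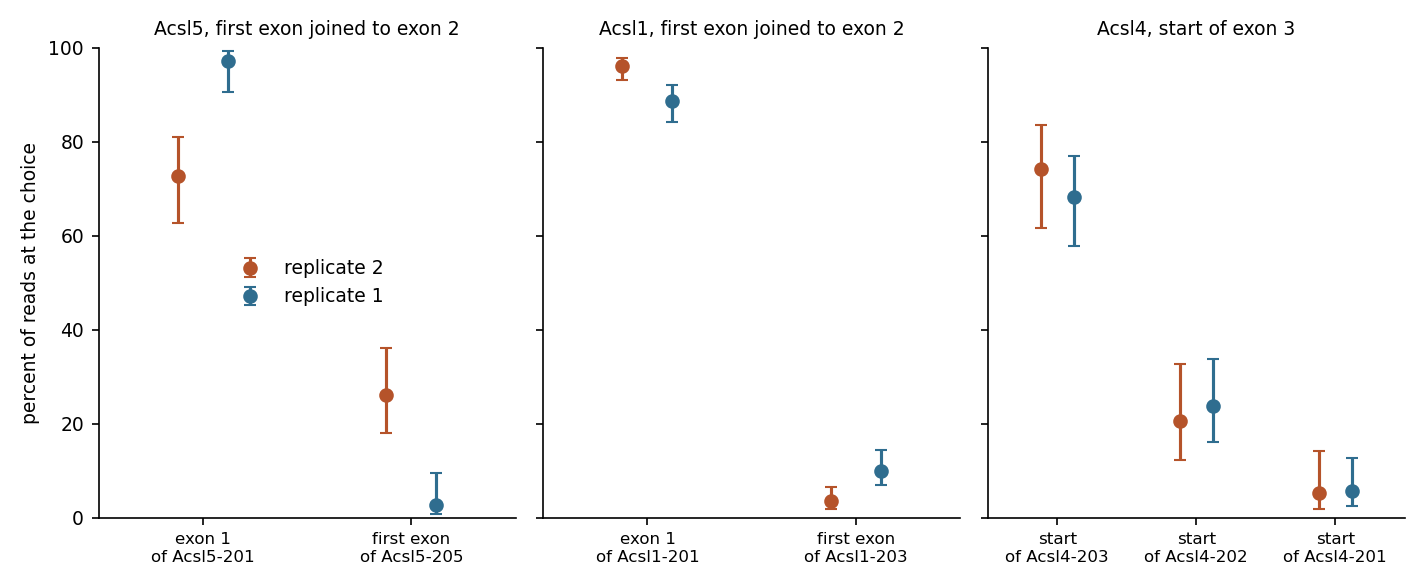
Share of reads, in percent with Wilson 95% intervals, that took each option at 3 splice choices, replicate 2 left of replicate 1. The intervals separate for the first exons of Acsl5 (26.1% in replicate 2 and 2.74% in replicate 1 for the upstream one) and of Acsl1 (9 of 260 reads in replicate 2 and 25 of 249 in replicate 1 for Acsl1-203), and overlap at all options of Acsl4 exon 3.

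At the fatty acid gate, the reads chose a single version of the exon in Acsl1. Exon 11 of Acsl1-201 followed exon 10 in 273 of 274 reads in replicate 2 and 266 of 267 in replicate 1. The alternative exon of Acsl1-202 was in 0 of 274 reads in replicate 2 and 0 of 267 in replicate 1, and 0 of 541 allows a share of up to 0.555%. Acsl5 reads carried their exon 11 in 97 reads in replicate 2 and 81 in replicate 1. Acsl6 had no spliced read in replicate 2. In replicate 1, 1 of its spliced reads took exon 11 of Acsl6-207. Another 2 entered at separate unannotated splice sites and left from the end of exon 11 of Acsl6-204. The remaining spliced read, with 19 exons, crossed no junction into or out of this exon. These are too few reads to rank the versions.

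Acsl4 (chrX:142317993-142390535, minus strand) varied at the start of exon 3, where its coding sequence begins. Acsl4-203 was taken by 43 of 58 reads in replicate 2 (74.1%, 61.6% to 83.7%) and 60 of 88 in replicate 1 (68.2%, 57.9% to 77.0%). Acsl4-202, which enters 3 bases further in, was taken by 12 of 58 reads in replicate 2 (20.7%) and 21 of 88 in replicate 1 (23.9%). Both encode 670 codons. Acsl4-201 encodes 711 codons, the longer form known from brain, and was taken by 3 of 58 reads in replicate 2 (5.17%, 1.77% to 14.1%) and 5 of 88 in replicate 1 (5.68%, 2.45% to 12.6%). The intervals of the libraries overlapped for all 3 options. The stretch that sets the long form apart is shown, in mm10 on the minus strand, with the start codon of the long form and that of the short form in capitals, 41 codons apart.
Acsl4-201 exon 3, chrX:142351604-142351729: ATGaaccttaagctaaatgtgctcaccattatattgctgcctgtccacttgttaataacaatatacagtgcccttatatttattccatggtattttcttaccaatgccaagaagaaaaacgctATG
An end of exon 2 that lies 4 bases beyond the annotated one was used by 4 of 47 reads in replicate 2 and 2 of 62 in replicate 1 that entered exon 3 at the Acsl4-203 site, 5.50% of both (2.55% to 11.5%).

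Reads that did not cover a whole transcript took a different form in each gene. Incomplete splice matches, which carry part of an annotated chain, made up 27.4% of Acsl5 reads in replicate 2 and 26.2% in replicate 1 (adjusted p = 1, Fisher's exact test). Their share of Acsl1 reads was 7.37% in replicate 2 and 12.3% in replicate 1 (adjusted p = 0.422, Fisher's exact test), and of Acsl4 reads 6.67% in replicate 2 and 18.6% in replicate 1 (adjusted p = 0.267, Fisher's exact test). The same test called 249 of 6033 genes (4.13%) and no member. The median over those genes was 6.19%. In Acsl5 most of them were a single form of 4 exons, from exon 19 to exon 22, with 23 reads in replicate 2 (18.5% of the gene's reads) and 21 in replicate 1 (20.4%). Reads that began in exon 2 of Acsl5 numbered 3 in replicate 2 and 2 in replicate 1. Among incomplete models of Acsl1 with at least 5 reads, those that began in exon 2 had 5 reads in each library, in exon 7 had 2 in replicate 2 and 3 in replicate 1, and in exon 17 had 8 in replicate 2 and 4 in replicate 1. The remaining one was a single-exon model in exon 21 with, at its exact coordinates, 0 reads in replicate 2 and 12 in replicate 1. Spliced incomplete reads alone made up 7.37% of Acsl1 reads in replicate 2 and 8.33% in replicate 1, and 2.67% of Acsl4 reads in replicate 2 and 14.4% in replicate 1. Every intron of Acsl5 from the third to the 18th was spliced out in between 74.2% and 80.6% of reads in replicate 2 and between 75.7% and 79.6% in replicate 1, and intron 19 in all reads of both. Intron 1 of Acsl1-201, which starts at 1 of the alternative first exons, was spliced out in 73.7% of Acsl1 reads in replicate 2 and 73.7% in replicate 1. From intron 2 to intron 20 the Acsl1 share lay between 78.5% and 84.7% in replicate 2 and between 84.7% and 92.7% in replicate 1. Intron 2 of Acsl4-203, where the alternative entries to exon 3 lie, was spliced out in 57.3% of Acsl4 reads in replicate 2 and 50.8% in replicate 1, and the other introns in between 81.3% and 82.7% in replicate 2 and between 74.6% and 88.1% in replicate 1.

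**Figure D5:**
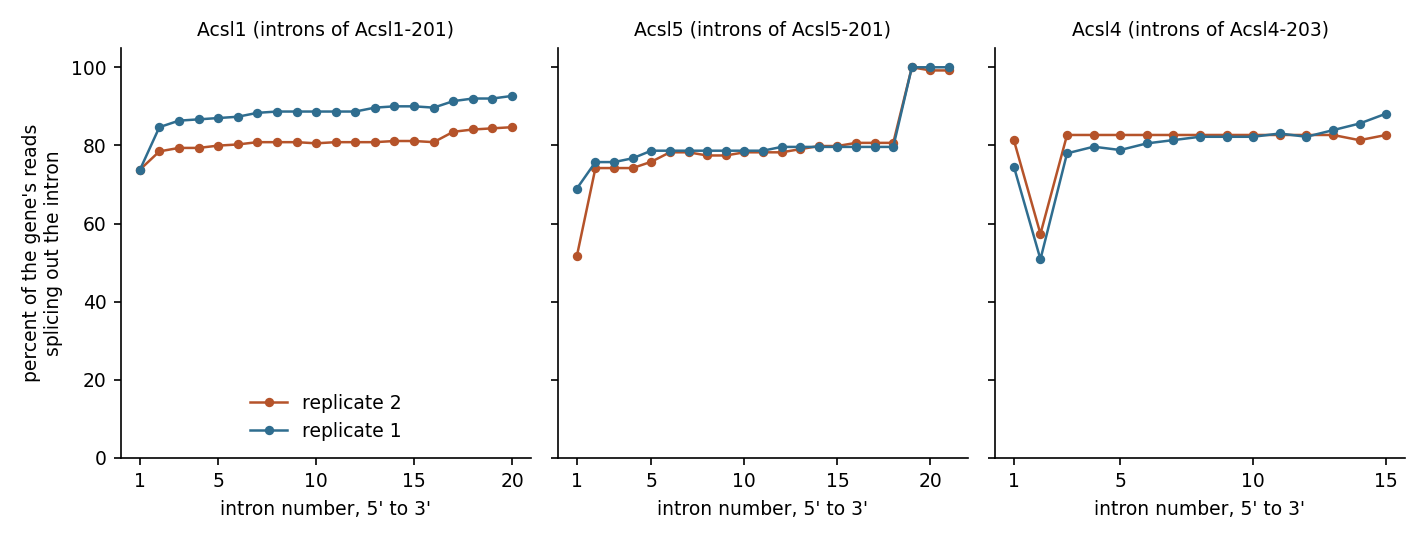
Percent of each gene's reads that spliced out each intron, from the 5' end to the 3' end of the leading transcript, replicate 2 and replicate 1 as separate lines. At Acsl5 intron 18 the share is 80.6% in replicate 2 and 79.6% in replicate 1, and at intron 19 it is all reads in both, while at intron 1 it lies at 51.6% in replicate 2 and 68.9% in replicate 1.

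Single-exon reads took a larger share of Acsl1 in replicate 2, with intervals that did not overlap, but this share includes the known model Acsl1-210 and was not tested. Without that model the difference was 5.11 percentage points, which was not called (adjusted p = 0.413, Fisher's exact test over all genes tested). All single-exon reads of Acsl1 numbered 51 of 339 in replicate 2 (interval 11.6% to 19.2%) and 21 of 300 in replicate 1 (7.00%, 4.62% to 10.5%). In replicate 2, 31 of them formed 1 model inside the last exon, from chr8:46534480 to the annotated end, which had no read in replicate 1. In replicate 1, 12 of the single-exon reads formed the exon 21 model counted above among the incomplete ones. It is 655 bases long, starts at chr8:46535397 and reaches the same annotated end, so it lies within the model of replicate 2. The base chr8:46535397 follows an unannotated gap of 42 bases, chr8:46535355-46535396. This gap was modelled as an intron in 3 of 287 reads in replicate 2 and 9 of 278 in replicate 1 (2.12% of both, 1.22% to 3.68%). Neither edge is an annotated splice site, and the bases at its edges were not examined. Acsl1-210, annotated as a retained intron that starts in exon 1, had 19 reads in replicate 2 and 8 in replicate 1. It overlaps the gene Gm45244 on the opposite strand (chr8:46471391-46473590), which had 1 read in replicate 2 and 0 in replicate 1. Acsl5 had no single-exon read, and Acsl4 had 12 of 75 in replicate 2 and 13 of 118 in replicate 1, of which 11 in replicate 2 and 13 in replicate 1 lay in its last exon. Those of Acsl4 formed 1 model with 7 reads in replicate 2 alone, 1 with 8 reads in replicate 1 alone and 1 with 3 reads in replicate 2 and 5 in replicate 1. The models with 7 and 8 reads overlap and share the annotated end of the gene, so they are not shown to be particular to a library.

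The scarce members gave few complete transcripts. Of Acsl3 reads, 3 in replicate 2 and 7 in replicate 1 matched Acsl3-205, and 0 in replicate 2 and 1 in replicate 1 matched Acsl3-201, which has an additional noncoding exon and the same 720 codons. The junction out of that exon was crossed by 1 read in each library, in replicate 2 by an incomplete model that starts in the exon. The gene Utp14b starts within the first exon of Acsl3 on the same strand (chr1:78657825-78707743), and 0 reads were assigned to it. All 3 reads of Acsl6 in replicate 2 were single-exon. In replicate 1, 4 of 5 were spliced with 19 or 21 exons, each a chain outside the annotation. Acsl5 overlaps Zdhhc6 on the opposite strand, which had 70 reads in replicate 2 and 86 in replicate 1, and every Acsl5 read was spliced.

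Other genes that make or use acyl-CoA were called in both directions by the exact binomial test over all genes, which called 9.17% of all genes tested (4.35% higher in replicate 2 and 4.81% higher in replicate 1). Of 14 tested synthetases outside the family, Slc27a2, a synthetase of liver and kidney (ratio 2.75), and Slc27a5, the bile acid synthetase of liver (ratio 21.1, on 2 reads in replicate 1, interval 5.49 to 179), were higher in replicate 2, and the mitochondrial acetyl-CoA synthetase Acss1 (ratio 0.430) was higher in replicate 1. The other 11 gave no call, among them Acsbg1 (206 ± 0.132 CPM), known from brain and steroid-making cells, and the fatty acid transporter Slc27a1 (149 ± 25.4 CPM). The acyl-CoA binding protein Dbi (ratio 1.43) was the 1 call among 13 tested genes of binding and hydrolysis, near the share over all genes, where the thioesterase Acot13 (205 CPM) and Acbd4 (60.5 CPM) gave none. Of 18 tested esterification genes, Agpat2 (ratio 1.40) was higher in replicate 2, Dgat2 (0.743), Dgat1 (0.676) and Gpat4 (0.590) were higher in replicate 1, and 14 gave no call, Agpat3 (315 CPM) included. Soat1, which esterifies cholesterol (ratio 0.771), and Cpt1b, the muscle-type carnitine transferase (0.642), were higher in replicate 1. Soat2, with 8 reads in replicate 2 and 0 in replicate 1, was not tested, and 4 other genes of mitochondrial entry gave no call, among them Cpt2 (318 CPM) and Cpt1a (166 CPM).

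The share called over all genes, 9.17%, also stands beside the counts of the last lists. Of 11 tested genes of elongation and desaturation, Elovl2 (ratio 42.1, on 1 read in replicate 1, interval 7.17 to 1702) was higher in replicate 2 and Fads2 (0.781) in replicate 1, and 9 gave no call, such as Scd2 (230 CPM) and Elovl5 (199.6 CPM). Of 7 genes of uptake and binding, Fabp1 (ratio 93.0), Fabp2 (12.7, on 1 read in replicate 1, interval 1.91 to 541) and Fabp3 (2.05) were higher in replicate 2 and Cd36 (0.766) in replicate 1, and 3 gave no call, with Fabp4 at 4317 CPM. After TMM scaling the genes called kept their directions, but Dgat1 (adjusted p = 0.132), Soat1 (0.398) and Cd36 (0.346) lost their calls, and Acbd6, Scd1 and Fabp4 gained one on the side of replicate 2 (all by the exact binomial test). The direction of Fabp4 depended on the scaling, with a ratio of 1.09 after TMM scaling, 1.06 and no call with DESeq2 size factors (adjusted p = 0.122, exact binomial test), and 0.936 with ERCC scaling, a call on the side of replicate 1 (adjusted p = 0.0286, exact binomial test). Acbd6 and Scd1 were called with DESeq2 size factors as well, and not with ERCC scaling. Slc27a5, Fabp1 and Elovl2 are strongly expressed in liver, whose markers moved the same way, and the part of liver RNA in these values was not tested.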

How the data were processed

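The deposited tables hold read counts per transcript model, whole numbers that the authors did not normalize, with 1 table per library. The build was mm10 and the annotation GENCODE M21, per the file headers, and the deposited models name TALON as their source. The aligner, TALON version and filters were not given in the sources used here. TALON may give a model the annotated transcript ends, so model lengths need not be read lengths.

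Here counts were summed per gene. Rows of ERCC spike-ins stayed out of the totals, and unannotated genes stayed in (94.8% of reads in replicate 2 and 95.4% in replicate 1 lay in annotated genes). Genes with at least 10 reads were tested by a two-sided exact binomial test against the share of all reads. Top transcripts and incomplete splice matches were tested by a two-sided Fisher's exact test with at least 20 reads in each library. All p-values were adjusted by Benjamini-Hochberg over all genes tested, with a threshold of 0.05. With 1 library on each side, edgeR has no residual degrees of freedom, so edgeR 4.0.16 and DESeq2 1.42.0 (R 4.3.3) gave scaling factors only, and scipy 1.17.1 and statsmodels 0.14.6 the tests and intervals. The deposited counts are not marked as counts of molecular identifiers, so intervals and limits cover counting error only. At this depth, intervals of Acsl3 and Acsl6 span several-fold. Shares at splice choices were described without a test.

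The members, gene lists and marker lists were chosen with earlier results of these data known. Named were all 5 members, every known model with reads, other models with at least 5 reads over both libraries, list genes past the threshold and the 3 highest of each list. Overlaps, promoter windows and the lists under other scalings were added later. Erythroid and fat markers (14472 and 11929 CPM in replicate 2, 14578 and 11701 CPM in replicate 1) were also summed.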

Additional observations from a re-analysis of the deposited data

How the results depend on the processing

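The order of the Acsl genes held with ERCC reads in the denominator, with annotated genes only, with spliced reads only and per kb. Counting known models only put Acsl4 above Acsl5 and gave Acsl1 367 CPM, Acsl5 93.4 CPM and Acsl6 0 CPM. Counting spliced reads only gave Acsl5 140 CPM and Acsl6 2.44 CPM. Without replicate 1 and without replicate 2, in this order, the levels were 344 and 311 CPM for Acsl1, 126 and 107 for Acsl5, 76.1 and 122 for Acsl4, 7.11 and 10.4 for Acsl3, and 3.05 and 5.18 for Acsl6. The ratio of Acsl4 lost its call with TMM scaling (0.695), DESeq2 size factors (0.674) and known models only (0.706). Known models only turned the ratio of Acsl5 to 0.849 (adjusted p = 0.741, exact binomial test), a setting that drops the reads of its upstream first exon. Counting single-exon reads of incomplete and genomic models, without known single-exon models such as Acsl1-210, in place of incomplete splice matches called 40 genes in place of 249, and turned the share differences of Acsl1 to 5.11 and of Acsl4 to 4.98 percentage points (adjusted p = 0.413 and 1, Fisher's exact test). The Acsl5 transcript difference kept its call with a minimum of 10 full-splice reads (adjusted p = 0.0202, Fisher's exact test), and could not be computed from known models, since only 1 had reads. The upstream first exon of Acsl5 took 26.1% without replicate 1 and 2.74% without replicate 2. No paired analysis was possible because the series has 1 group. Depth limits Acsl3 and Acsl6, whose isoforms rest on 1 to 7 reads each.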
